A study of Danio rerio with 8 samples.

Results

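The genes described here carry proteins between the endoplasmic reticulum (ER) and the Golgi apparatus. They were taken by symbol, as the coat, cargo receptor and Golgi membrane protein families whose names begin copa, copb, cope, copg, copz, arcn1, sar1, sec13, sec16, sec22, sec23, sec24, sec31, tmed, yipf, kdelr, lman, mcfd2, gosr or bet1. The rule found 55 of the 31200 symbols in the table. No measured value entered the rule itself, but these families were chosen with earlier results of these data known. Of the 55, 13 code for the COPII coat and its partners, 9 for the COPI coat, 19 for cargo receptors and retrieval receptors, and 14 for Golgi membrane proteins and SNAREs. One gene, tmed6, was listed at 0 FPKM in all 8 libraries, and the other 54 were among the 13984 genes tested.

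Proteins made at the ER leave it in vesicles coated with COPII. The small GTPase Sar1 starts the coat, Sec23 and Sec24 form its inner layer and bind cargo, and Sec13 and Sec31 form the outer cage. COPI, a coat made of coatomer, returns escaped proteins and receptors from the Golgi to the ER, and SNARE proteins fuse the vesicles with their target membranes. Proteins with a glycosylphosphatidylinositol (GPI) anchor have no tail in the cytosol that a coat could bind. In yeast and mammalian cells they depend on p24 proteins, which the tmed genes encode, as cargo receptors. PIGU, the product of pigu, is a subunit of the GPI transamidase, the ER enzyme that attaches the anchor.

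The series asked how this enzyme bears on the migration of zebrafish primordial germ cells (PGCs), the founder cells of the germline. All embryos, wild type and pigu-/- alike, had received GFP-nanos1-3'UTR mRNA as zygotes, so that their PGCs fluoresced. GFP-positive cells were collected manually, after dissociation, at the shield stage, in early gastrulation, or at the bud stage, at its end. Cells of equal genotype were pooled, and each of the 4 groups (wild type and homozygous pigu mutant, at shield and at bud) had 2 SMART-seq2 libraries that the labels call biological replicates. Tuebingen (Tu) and India served as wild type strains. A Tg(kop:EGFP-nanos 3'UTR) line is also named in the growth protocol, without saying which libraries came from it. The labels describe neither the pigu allele nor the number of cells in a pool, and an RNA extraction field speaks of oocytes.

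Values are FPKM, fragments scaled to the length of the transcript and to all fragments mapped in that library, so levels can be compared between genes. In what follows, pairs of values are replicates 1 and 2 in that order. Differences are on the log2(FPKM + 1) scale, mutant minus wild type or bud minus shield, with their standard error (SE) from limma, and this scale understates differences of low genes. An FPKM of exactly 0 may be a failed detection, and such genes are called listed at 0.

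Libraries differed within groups. Genes at FPKM of 1 or more numbered 5878 in mutant shield replicate 1, 6708 in mutant bud replicate 1 and 8338 in wild type shield replicate 1, and between 11460 and 13007 in the other 5. Genes of the mitochondrial genome held 72.2% of all FPKM in mutant shield replicate 1, 58.3% in wild type shield replicate 1 and 17.3% to 37.3% elsewhere. Germ cell markers were present in every library: ddx4, a germline RNA helicase, ranged from 106 to 1401 FPKM, and dnd1, an RNA-binding protein of PGCs, from 632 to 4585 FPKM. Of the 12 germ cell markers listed, piwil1 was at 0 in both mutant replicate 1 libraries and rgs14a in mutant bud replicate 1. In mutant shield replicate 1 tdrd6 was close to 0, at 3.24e-07 FPKM. Their summed level was 6819 and 24367 FPKM in wild type versus 4930 and 35568 in mutants at shield, and 9468 and 16590 against 17881 and 3612 at bud. Markers of the enveloping layer, a surface epithelium, summed to 605 FPKM in mutant shield replicate 1 and 1041 in mutant bud replicate 2, against 21.3 to 75.0 in the other 6. Neural ectoderm markers summed to 996 FPKM in mutant bud replicate 2 and to between 37.8 and 156 elsewhere, and axial mesoderm markers to 935 against 14.1 to 499. The 11 paraxial and lateral mesoderm markers summed to 135 and 358 FPKM in wild type versus 108 and 587 in mutants at shield, and 138 and 217 against 450 and 535 at bud, so both mutant bud libraries were above both wild type bud libraries for that sum. In mutant bud replicate 1 most of it came from her7 at 253, tbx16 at 118 and her1 at 42.4 FPKM. These and dlc (1.46) lay above both wild type bud libraries. In the same mutant library gata2a, myf5 and lmo2 lay below both wild type bud libraries, and msgn1 lay between them. There tbx6, myod1 and tal1 were listed at 0. Endoderm markers summed to between 0 and 188 FPKM, with all 4 listed at 0 in mutant bud replicate 1, and epidermis markers to between 4.11 and 82.2. The targeted gene, pigu, stood at 11.5 and 15.04 FPKM in wild type versus 0.813 and 10.95 in mutants at shield, and 2.78 and 14.6 against 0 and 7.32 at bud. Over both stages it differed by -1.51 (SE 1.20, adjusted p = 0.984 in limma), and since the allele is not described, its RNA level does not check the genotype labels.

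The transport genes were broadly expressed in PGCs. Mean FPKM over the 8 libraries was 10 or more for 39 of the 55 and 50 or more for 19, and it was under 2 for 6. The 5 above 100 on average were cope at 170.3, tmed9 at 159, copz1 at 120.4, kdelr2a at 112 and tmed2 at 112 FPKM. Together the 55 genes made up 0.200% and 0.460% of all FPKM against 0.108% and 0.343% at shield, and 0.358% and 0.444% against 0.195% and 0.425% at bud. In all 4 groups the lower value belonged to replicate 1, and genotypes overlapped at both stages. The total includes mitochondrial genes. They held 58.3% and 22.9% of it in wild type versus 72.2% and 23.5% in mutants at shield. At bud they held 30.5% and 17.8% against 37.3% and 17.3%. Their part was thus higher in replicate 1 of every group. The overlap was seen in shares of all FPKM, and shares of the remaining FPKM are not given here. In pools of cells such as these, fewer cells of a type and less RNA per cell cannot be told apart.

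The number of the 55 listed at 0 was 8 in wild type shield replicate 1 (34.4% of all tested genes were), 1 in replicate 2 (5.64%), 20 and 4 in the mutant shield libraries (53.3% and 10.7%), 4 and 1 in wild type bud (12.6% and 4.26%), and 18 and 2 in mutant bud (49.3% and 11.2%). In mutant shield replicate 1, 9 of the 13 COPII genes were listed at 0, against 1 of the 9 COPI genes, 7 of the 19 cargo and retrieval genes and 3 of the 14 Golgi and SNARE genes. In mutant bud replicate 1 the counts were 4, 0, 9 and 5. Altogether 26 members were listed at 0 in at least one of these libraries, and 10 in any of the other 6.

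**Figure D1:**
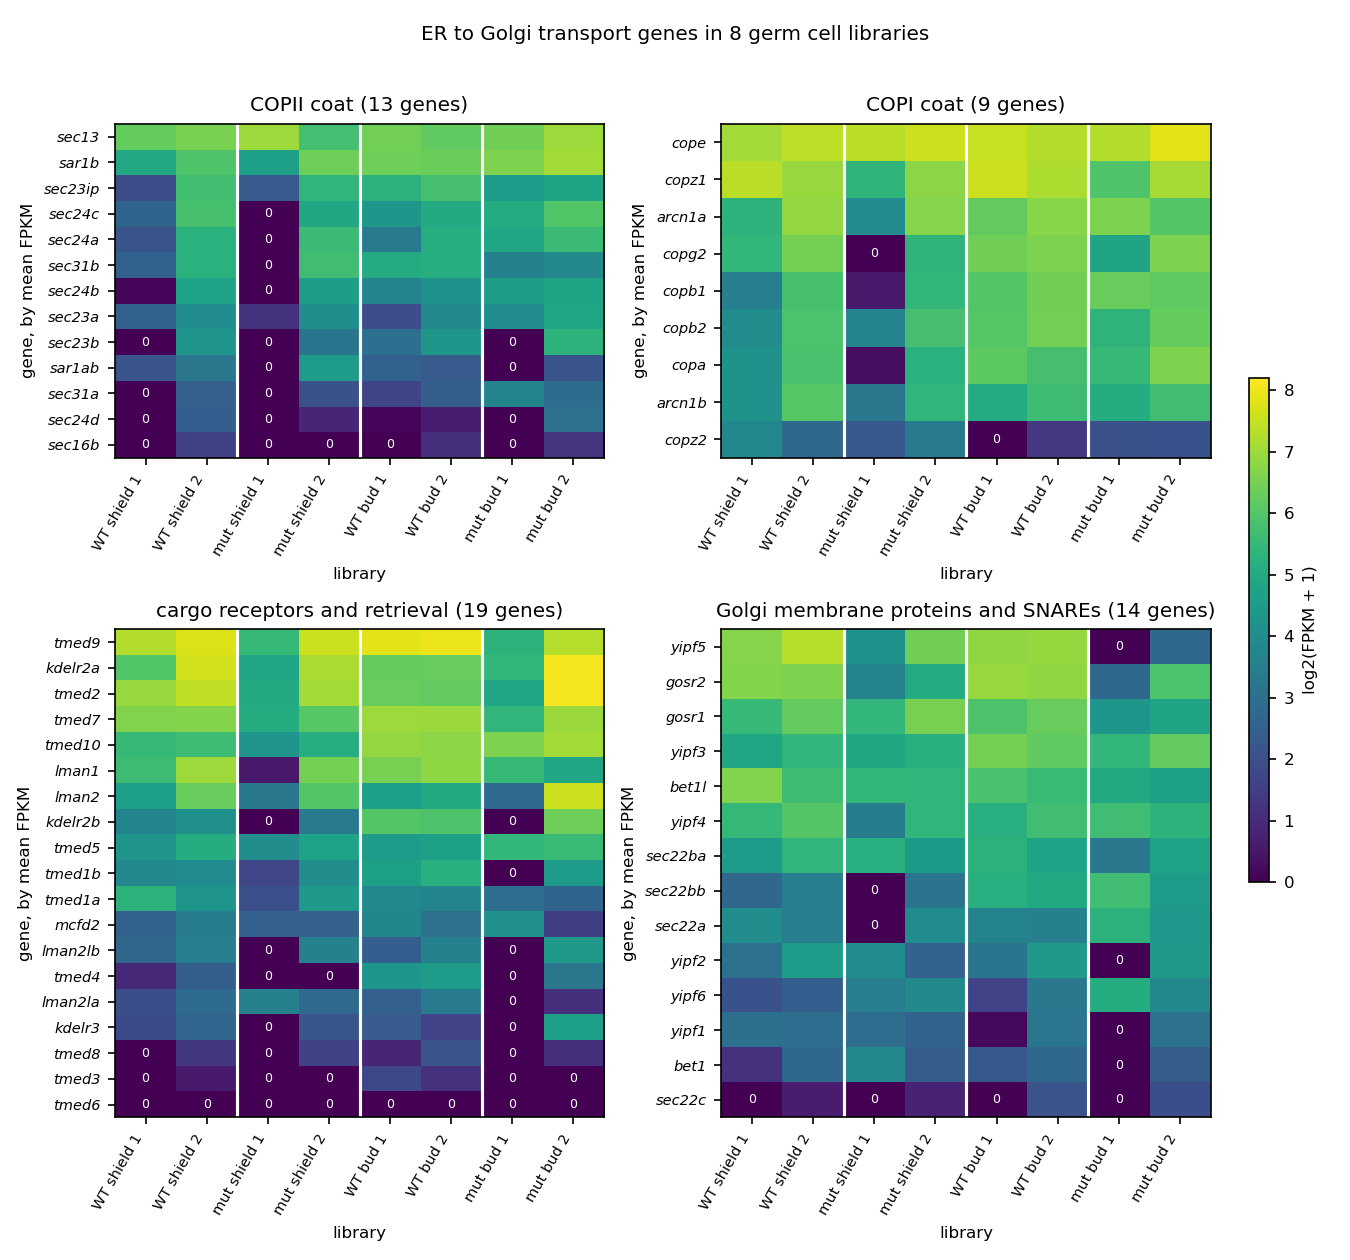
Levels of the 55 transport genes, as log2(FPKM + 1), in the 8 libraries (columns), grouped by role (rows). Cells are empty of signal most often in the mutant shield replicate 1 and mutant bud replicate 1 columns, where 20 and 18 genes were listed at 0, while cope stays between 132 and 227 FPKM throughout.

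Across all 13984 genes, limma called 0 (0%) at an adjusted p under 0.05 in each of the 6 comparisons (genotype at each stage and over both, stage in each genotype, and their interaction), and so 0 of the 54 transport genes. At an unadjusted p under 0.05, 1 transport gene was lower in mutants at shield, where 1.09% of all genes were, and 0 were higher (0.35%). At bud 3 were lower (4.08% of all genes) and 0 higher (0.765%). Of these 3, tmed3 passed the filter only through its wild type bud values. Over both stages 2 were lower (3.78%) and 0 higher (0.486%). The members are therefore described below by their values in each library.

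At shield the log2 difference lay below 0 for 45 of 54 transport genes (83.3%), against 63.5% of all genes, and above it for 9, against 33.8%, with a median of -0.78 against -0.30 for all genes. Both mutant libraries lay below both wild type libraries for 12 (22.2%, against 12.2% of all genes) and above them for 1 (1.85%, against 4.26%). The count of 45 rested on single libraries. It was 21 when mutant shield replicate 1 was left out and 25 when wild type shield replicate 2 was, and the members' median then stood at 0.16 and 0.0039, and that of all genes at 0.49 and 0.15. Median-of-ratios scaling gave 39 below 0 and 15 above, and quantile normalization 35 and 19. The shares of all genes under these scalings are not given here, and those above are for the values as deposited. At bud 30 of 54 (55.6%) lay below 0, against 66.5% of all genes, and 24 above it, against 32.6%, with a median of -0.33 against -0.51. Without mutant bud replicate 1 the direction turned, with 29 above 0, 25 below and a median of 0.19 (all genes -0.20). Without mutant bud replicate 2 the median was -0.97 (all genes -0.90), and under quantile normalization it was 0.02, with 28 above and 26 below (all genes 0.04). As deposited, 16 members had both mutant libraries lower (29.6%, against 28.9%) and 9 had both higher (16.7%, against 8.19%). A gene listed at 0 in a mutant bud library cannot have both higher. In mutant bud replicate 1 that held for 18 of the 55 members and 49.3% of all genes. Over both stages 42 of 54 (77.8%) lay below 0, against 71% of all genes, and 12 above it, against 29%. The count below 0 was 27 without mutant shield replicate 1. The 5 genes (9.26%, against 4.46% of all genes) with both mutant libraries lower at each stage were yipf5, gosr2, copz1, bet1l and tmed4. Only yipf6 among the members (1.85%, against 0.422%) had them higher at each stage.

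**Figure D2:**
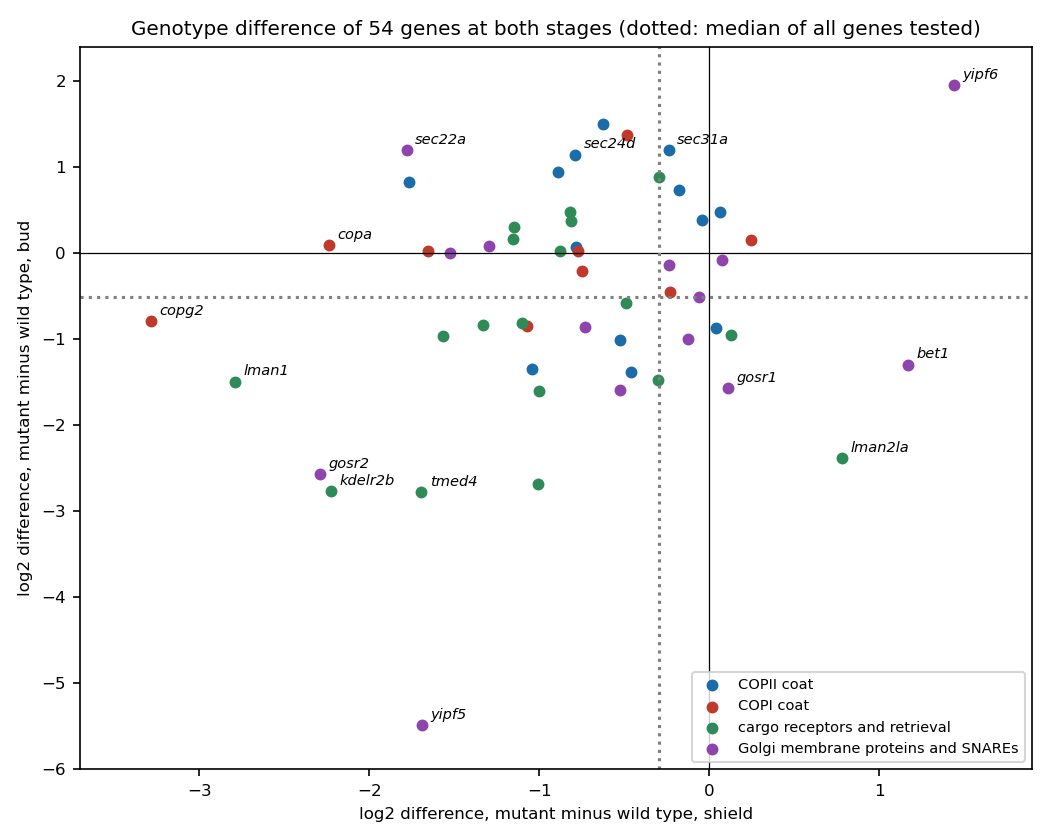
Log2 difference, mutant minus wild type, at shield (horizontal axis) and at bud (vertical axis) for the 54 transport genes tested, coloured by role, with dotted lines at the medians of all genes tested. The gene yipf5 lies lowest at bud, at -5.49, yipf6 lies highest at both stages, and 9 of the 13 COPII genes lie above 0 at bud.

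Among COPII coat genes, levels spanned from sec13, with a mean of 89.7 FPKM, to sec16b, with a mean of 0.567. The outer cage subunit sec13 stood at 75.5 and 92.8 FPKM in wild type versus 126 and 52.4 in mutants at shield, and 86.1 and 72.4 against 85.2 and 127 at bud. Genotypes overlapped at both stages, and the log2 difference over both was 0.18 (SE 0.62, adjusted p = 0.999 in limma). For sar1b, a Sar1 GTPase, FPKM were 30.0 and 60.003 in wild type versus 23.8 and 82.3 in mutants at shield, and 82.0 and 80.6 against 97.9 and 132 at bud. Within each genotype both bud libraries lay above both shield libraries, and mutants lay above wild type at bud. The log2 difference at bud was 0.48 (SE 0.96, adjusted p = 0.984 in limma). A Sec23-binding protein of ER exit sites, sec23ip, stood at 2.87 and 51.6 FPKM in wild type versus 4.10 and 41.2 in mutants at shield, and 37.3 and 54.3 against 21.8 and 26.7 at bud. Its mutant bud libraries were the lower pair, with a log2 difference of -0.87 (SE 1.42).

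COPII genes lay in both directions at bud. Of the 13, 9 had a log2 difference above 0 at bud, with a median of 0.48 against -0.51 for all genes, and 5 (sar1b, sec23a, sec24b, sec24c and sec31a; 38.5%, against 8.19% of all genes) had both mutant libraries above both wild type libraries. Another 3 (23.1%, against 28.9%) had both mutant libraries lower. In mutant bud replicate 1, 49.3% of all genes were listed at 0, against 4 of the 13 COPII genes. A gene at 0 there cannot have both mutant libraries higher, and the 2 sets were not matched for level. The share of 8.19% is therefore not a like background. Under quantile normalization 10 of the 13 COPII genes lay above 0, and the median of all genes was 0.04. Without mutant bud replicate 2, which had the highest enveloping layer, neural and axial marker sums, 7 of 13 lay above 0. The COPII median was then 0.11 and stayed above the median of all genes. The other mutant bud library had a paraxial and lateral mesoderm sum raised mainly by her7, tbx16 and her1. Its gata2a, myf5 and lmo2 lay below both wild type bud libraries. The part of other cell types in these levels was not tested. The inner coat subunit sec23a stood at 4.81 and 15.01 FPKM in wild type versus 1.30 and 16.02 in mutants at shield, and 2.84 and 13.7 against 14.8 and 28.1 at bud. Its mutant bud values were the higher pair by a narrow gap, with a log2 difference of 1.51 (SE 1.52, adjusted p = 0.959 in limma). For the cage subunit sec31a, FPKM were 0 and 4.71 in wild type versus 0 and 3.10 in mutants at shield, and 2.29 and 4.55 against 12.1 and 6.38 at bud, a log2 difference at bud of 1.20 (SE 1.55). The cargo-binding subunit sec24d was low, at 0 and 4.44 FPKM in wild type versus 0 and 0.822 in mutants at shield, and 0.0960 and 0.549 against 0 and 7.35 at bud. Its highest value was in mutant bud replicate 2 alone.

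At shield 0 of 13 COPII genes separated the genotypes, where 12.2% of all genes had both mutant libraries lower and 4.26% higher. By sign 11 of 13 (84.6%, against 63.5% of all genes) lay below 0, with a median of -0.53 against -0.30, but only 3 did once mutant shield replicate 1 was left out, and 1 once wild type shield replicate 2 was. The COPII median then stood at 0.94 and 0.43, and the median of all genes was above 0 in both settings too. Replicate differences were as wide as 0.103 against 26.3 FPKM for sec24b in wild type shield.

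Counting genes above 0 in all 8 libraries, the COPI coat was the more evenly detected, with 7 of 9 against 4 of 13 for COPII. Those 7 include copa and copb1, at only 0.223 and 0.474 FPKM in mutant shield replicate 1. Most COPI genes also had a higher mean FPKM than most COPII genes. The subunit gene cope was the steadiest of the highly expressed ones, at 132 and 166 FPKM in wild type versus 162 and 191 in mutants at shield, and 182 and 152 against 150.4 and 227 at bud. The difference over both stages was 0.20 on the log2 scale, with a 95% interval from -0.93 to 1.33 (adjusted p = 0.999 in limma), so a difference of up to about that size in either direction remains within the error. In mutant shield replicate 1, where cope stood at 162 FPKM, the other coatomer genes lay between 0 and 40.2.

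The zeta subunit copz1 stood at 163 and 121 FPKM in wild type versus 40.2 and 109 in mutants at shield, and 189 and 144 against 60.6 and 136 at bud. Both mutant libraries were lower at each stage, with replicate 1 by far the lower, and the log2 difference over both stages was -0.96 (SE 0.62, adjusted p = 0.983 in limma). Its paralog copz2 was low, at 13.3 and 5.64 FPKM in wild type versus 3.79 and 9.12 in mutants at shield, and 0 and 1.55 against 3.06 and 3.21 at bud. Wild type bud was the lowest group for copz2, and in both genotypes bud lay below shield, by a log2 difference of -2.61 (SE 1.53) in wild type and -0.75 (SE 1.53) in mutants. The delta subunit arcn1a stood at 38.5 and 117 FPKM in wild type versus 14.8 and 103.2 in mutants at shield, and 74.8 and 107 against 94.8 and 62.8 at bud, and its groups overlapped in every comparison.

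For the gamma subunit copg2, FPKM were 42.2 and 88.0 in wild type versus 0 and 39.4 in mutants at shield, and 84.1 and 93.8 against 26.7 and 96.2 at bud. Mutants lay below wild type at shield, with a log2 difference of -3.29 (SE 1.44, unadjusted p = 0.0367 and adjusted p = 1 in limma), and overlapped at bud. Without mutant shield replicate 1, where it was listed at 0, the shield difference was -0.62. The alpha subunit copa stood at 17.0 and 56.2 FPKM in wild type versus 0.223 and 36.7 in mutants at shield, and 69.5 and 53.9 against 44.2 and 97.1 at bud. Genotypes overlapped at both stages. The log2 difference at shield was -2.24 (SE 1.42), and it was 0.23 without mutant shield replicate 1.

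Of the 19 cargo and retrieval genes, the p24 gene tmed9 had the highest mean, at 151 and 217 FPKM in wild type versus 43.8 and 184 in mutants at shield, and 231 and 246 against 38.6 and 157 at bud. At bud both mutant libraries were lower, with a log2 difference of -1.60 (SE 0.93, adjusted p = 0.959 in limma), while at shield the genotypes overlapped. Without mutant bud replicate 1 the bud difference was -0.60. The p24 gene tmed2 stood at 121 and 171 FPKM in wild type versus 31.3 and 131 in mutants at shield, and 77.2 and 74.4 against 27.1 and 263 at bud. Its mutant bud replicates lay on opposite sides of wild type.

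In mammalian cells TMED2 and TMED10 are subunits of the p24 complex that carries GPI-anchored proteins. Here tmed10 stood at 44.1 and 49.3 FPKM in wild type versus 18.3 and 33.8 in mutants at shield, and 115 and 109 against 96.02 and 134 at bud. All bud libraries lay above all shield libraries. The stage difference was 1.24 (SE 0.91) in wild type and 2.14 (SE 0.91, unadjusted p = 0.0322 and adjusted p = 0.731 in limma) in mutants, and at shield both mutant libraries were the lower. A further p24 gene, tmed5, stood at 18.3 and 32.7 FPKM in wild type versus 15.1 and 25.8 in mutants at shield, and 21.5 and 24.5 against 41.9 and 45.0 at bud. Its mutant bud libraries were the highest of the 8 and lay close together, with a log2 difference at bud of 0.89 (SE 1.08, adjusted p = 0.961 in limma).

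Low p24 genes had their highest values in wild type bud. For tmed4, FPKM were 0.865 and 4.61 in wild type versus 0 and 0 in mutants at shield, and 18.8 and 21.9 against 0 and 8.61 at bud. Both mutant shield libraries were thus listed at 0, and at bud mutants were lower by a log2 difference of -2.78 (SE 1.57, adjusted p = 0.959 in limma). That difference was -1.15 without mutant bud replicate 1 and -4.41 without mutant bud replicate 2. For tmed3, FPKM were 0 and 0.517 at shield and 2.45 and 1.25 at bud in wild type, and 0 in all 4 mutant libraries. It reached FPKM 1 only in the 2 wild type bud libraries, so it was tested only through the group where it was high. Its bud p (unadjusted 0.0327, adjusted 0.959 in limma) therefore cannot serve as support for a genotype difference. The gene tmed8 stood at 0 and 1.51 FPKM in wild type versus 0 and 2.01 in mutants at shield, and 0.824 and 3.43 against 0 and 1.16 at bud, and overlapped between genotypes.

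Among lectin receptors, lman1 encodes a mannose-binding receptor that carries glycoproteins out of the ER together with the product of mcfd2. It stood at 48.5 and 126 FPKM in wild type versus 0.465 and 88.9 in mutants at shield, and 91.3 and 110.2 against 44.2 and 27.6 at bud. Both mutant libraries were lower at bud, by a log2 difference of -1.49 (SE 1.47), and the difference over both stages was -2.14 (SE 1.04, unadjusted p = 0.0567 and adjusted p = 0.983 in limma). At shield the difference was -2.79 (SE 1.47), and it was 0.18 without mutant shield replicate 1. A related lectin gene, lman2la, stood at 2.92 and 6.24 FPKM in wild type versus 10.98 and 6.005 in mutants at shield, and 4.65 and 9.54 against 0 and 1.19 at bud. It was among the few members above wild type on average at shield (0.78, SE 1.53), and both its mutant libraries were lower at bud (-2.38, SE 1.53).

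The KDEL receptors return ER residents that have escaped to the Golgi. For kdelr2a, FPKM were 61.7 and 199.7 in wild type versus 27.4 and 141 in mutants at shield, and 75.3 and 78.3 against 41.9 and 273 at bud, with overlap at both stages. Its paralog kdelr2b stood at 11.97 and 16.4 FPKM in wild type versus 0 and 9.32 in mutants at shield, and 63.5 and 59.8 against 0 and 83.2 at bud. Mutants were lower at shield and spanned wild type at bud.

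By count, 17 of the 18 cargo and retrieval genes tested (94.4%, against 71% of all genes) lay below 0 over both stages, with a median of -0.84 against -0.42 for all genes. The 1 with mutant libraries lower at each stage (5.56%) was near the share of all genes (4.46%). Leaving out mutant shield replicate 1 gave 13 of 18 and leaving out mutant bud replicate 1 gave 12 of 18. Quantile normalization gave 13 of 18. The matching shares of all genes are not given here.

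The Golgi membrane proteins and SNAREs held the member with the largest genotype difference. The product of yipf5 is a multi-pass protein of the early Golgi and ER-Golgi membranes. Its FPKM were 105 and 154 in wild type versus 17.3 and 85.4 in mutants at shield, and 114 and 118 against 0 and 5.79 at bud. Both mutant libraries lay below both wild type libraries at each stage, and the mutant bud libraries lay below all others. Both of those libraries had raised paraxial and lateral mesoderm marker sums. In replicate 1 this came mainly from her7, tbx16 and her1, while gata2a, myf5 and lmo2 lay below both wild type bud libraries. Replicate 2 had raised enveloping layer, neural and axial sums as well. The part of other cell types in the level of yipf5 was not tested. The log2 difference was -5.49 at bud (SE 1.20, unadjusted p = 0.000339 and adjusted p = 0.959 in limma) and -1.69 at shield (SE 1.20). By unadjusted p it ranked 3 of 13984 genes at bud, and 5 over both stages, where the difference was -3.59 (SE 0.85, adjusted p = 0.983).

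The difference of yipf5 between stages in mutants was -3.93 (SE 1.20, unadjusted p = 0.00491, adjusted p = 0.681 in limma), against -0.13 (SE 1.20) in wild type. The interaction of genotype and stage was -3.80 (SE 1.69, unadjusted p = 0.0401, adjusted p = 1 in limma). It was the only transport gene with an unadjusted p under 0.05 there (0.937% of all genes below 0, 0.486% above). At bud the genotype difference was -4.11 without mutant bud replicate 1 and -6.87 without mutant bud replicate 2. At shield it was -0.57 without mutant shield replicate 1. With mutant shield replicate 1 and mutant bud replicate 2 both left out, the bud difference was -6.87 for yipf5, -4.14 for gosr2 and -5.97 for kdelr2b. Each mutant arm then held a single library, assumed to vary like the others.

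The Golgi SNARE gene gosr2 stood at 102 and 97.5 FPKM in wild type versus 11.9 and 31.9 in mutants at shield, and 120.4 and 114 against 5.68 and 58.3 at bud. All 4 wild type libraries lay between 97.5 and 120.4, and all 4 mutant libraries lay below them. The log2 difference was -2.29 (SE 1.13) at shield, -2.57 (SE 1.13, unadjusted p = 0.0380) at bud and -2.43 (SE 0.80, unadjusted p = 0.00818, adjusted p = 0.983 in limma) over both stages, rank 47 of 13984 by unadjusted p. It was -1.61 at shield without mutant shield replicate 1 and -0.99 at bud without mutant bud replicate 1. The related SNARE gene gosr1 stood at 44.3 and 74.8 FPKM in wild type versus 42.3 and 91.6 in mutants at shield, and 59.7 and 78.0 against 19.01 and 26.4 at bud. Genotypes overlapped at shield, and at bud both mutant libraries were the lower (-1.56, SE 0.97, adjusted p = 0.959 in limma).

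Over both stages 12 of the 14 Golgi and SNARE genes (85.7%, against 71% of all genes) lay below 0 and 2 above. Mutant libraries were lower at each stage for 3 (21.4%, against 4.46%) and higher for 1 (7.14%, against 0.422%). Without mutant shield replicate 1, 10 lay below 0, and under quantile normalization 9 did. The matching shares of all genes in these 2 settings are not given here. Other named members of the group lay in both directions. A Golgi membrane protein of the same family as yipf5, yipf6, stood at 3.17 and 4.50 FPKM in wild type versus 10.5 and 13.8 in mutants at shield, and 2.16 and 8.76 against 32.8 and 12.8 at bud. All 4 mutant libraries lay above all 4 wild type libraries. The log2 difference was 1.44 (SE 1.43) at shield, 1.96 (SE 1.43) at bud and 1.70 (SE 1.01, adjusted p = 0.983 in limma) over both. The vesicle SNARE gene bet1 stood at 1.26 and 5.65 FPKM in wild type versus 13.3 and 4.31 in mutants at shield, and 3.78 and 5.67 against 0 and 4.30 at bud, with its highest value in mutant shield replicate 1. Its relative bet1l, named after its values were seen, stood at 99.7 and 49.5 FPKM in wild type versus 42.6 and 41.3 in mutants at shield, and 56.1 and 45.3 against 30.8 and 24.4 at bud. Both mutant libraries of bet1l were lower at each stage, by -0.80 over both (SE 0.69, adjusted p = 0.984 in limma).

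**Figure D3:**
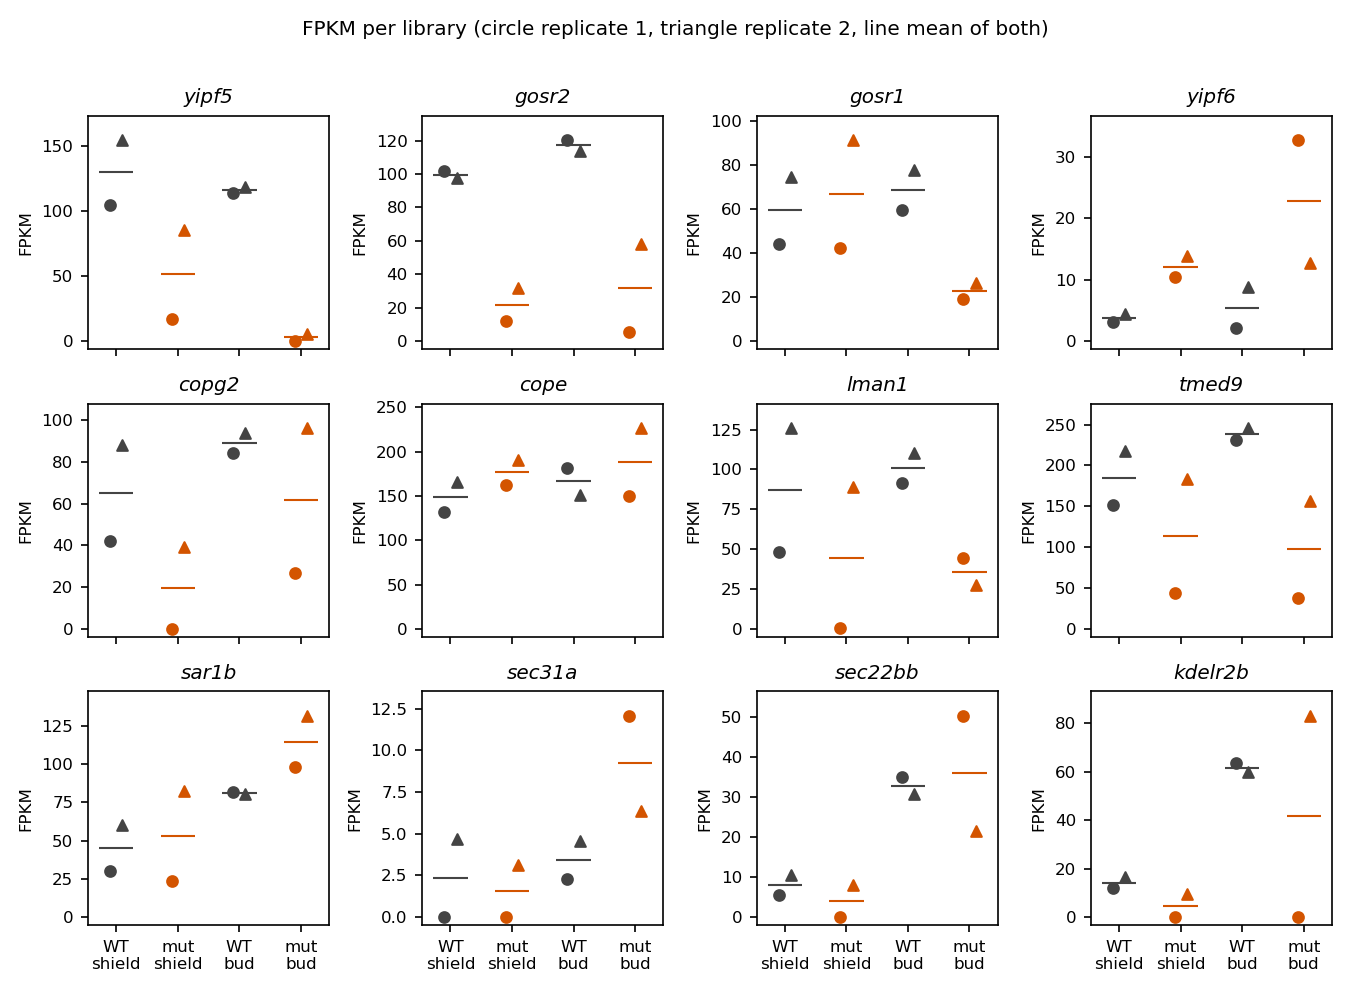
FPKM of 12 transport genes in each library, by group, with circles for replicate 1, triangles for replicate 2 and lines at the mean of both. Wild type values of gosr2 lie between 97.5 and 120.4 with all mutant values below, yipf5 is near 0 in mutant bud, yipf6 is higher in all mutant libraries, and cope overlaps in all groups.

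From shield to bud the transport genes lay in both directions. In wild type 13 members had both bud libraries above both shield libraries (24.1%, against 29.1% of all genes) and 3 below (5.56%, against 9.89%). In mutants 11 were above (20.4%, against 14.7%) and 6 below (11.1%, against 8.77%). At an unadjusted p under 0.05 there were 0 in either direction in wild type (2.52% of all genes higher, 0.815% lower), and in mutants 4 higher (4.27%) and 1 lower (2.37%). By sign alone, 35 lay above and 19 below 0 in wild type (68.5% and 31.1% of all genes), and 38 above and 15 below in mutants (56.4% and 41.6%). The median was 0.33 in wild type against 0.51 for all genes, and 0.75 in mutants against 0.25. These signs turned when single libraries were left out. In wild type 22 lay above 0 and 32 below without wild type shield replicate 1 (median -0.21, all genes -0.06), and 47 and 7 without wild type shield replicate 2. Median-of-ratios scaling gave 23 and 31 there (median -0.15, all genes 0.19), and quantile normalization 24 and 30. In mutants 24 lay above and 29 below without mutant shield replicate 1 (median -0.11, all genes -0.47), and 24 and 27 without mutant bud replicate 2 (median -0.064, all genes -0.23). Both scalings left more members above 0 than below in mutants, at 31 and 22 and at 30 and 24. The shares of all genes by sign under both scalings are not given here. Stage and genotype comparisons share libraries and are not independent.

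The SNARE gene sec22bb stood at 5.49 and 10.4 FPKM in wild type versus 0 and 7.89 in mutants at shield, and 35.0 and 30.6 against 50.3 and 21.4 at bud. Every bud library lay above every shield library, with a log2 difference of 1.97 (SE 1.41) in wild type and 3.51 (SE 1.41, unadjusted p = 0.0250 and adjusted p = 0.729 in limma) in mutants. For copa the stage difference in mutants was 3.29 (SE 1.42, unadjusted p = 0.0342 and adjusted p = 0.731 in limma). It was 0.82 without mutant shield replicate 1 and 5.77 without mutant shield replicate 2. The latter value rests on a mutant shield arm of 1 library, in which copa stood at 0.223 FPKM and 53.3% of all genes were listed at 0, with its spread assumed to be that of the other groups. The Sec22 family gene sec22a stood at 15.1 and 10.5 FPKM in wild type versus 0 and 14.7 in mutants at shield, and 11.6 and 10.95 against 37.3 and 19.8 at bud. It was highest in mutant bud, with an interaction of 2.98 (SE 2.12, adjusted p = 1 in limma). Without mutant shield replicate 1 the interaction was 1.00, and without mutant shield replicate 2 it was 4.97. For yipf1, at 7.19 and 6.69 FPKM in wild type versus 6.66 and 4.94 in mutants at shield, and 0.123 and 8.26 against 0 and 7.56 at bud, the bud replicates disagreed in both genotypes.

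Paralog pairs allowed a comparison within a library that does not depend on its scaling, although reads could be split between near-identical copies and the handling of multiply aligned reads is not given in the sources used here. These pairs were chosen after their values were seen. The share of kdelr2b in the sum of kdelr2a and kdelr2b was 16.3% and 7.59% in wild type versus 0% and 6.20% in mutants at shield, and 45.7% and 43.3% against 0% and 23.4% at bud. Wild type bud was above every other group. The share of sec22bb in the sum of sec22ba and sec22bb was 20.3% and 20.3% in wild type versus 0% and 27.0% in mutants at shield, and 48.4% and 53.8% against 85.4% and 45.1% at bud, so that all 4 bud libraries were above all 4 shield libraries.

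The share of sec31b in the sum of sec31a and sec31b was 100% and 88.6% against 94.2% (replicate 2 alone) at shield, and 93.3% and 88.0% against 48.2% and 67.8% at bud. In mutant shield replicate 1 neither was detected, and the mutant bud libraries were the lowest of the 7 others. By contrast arcn1b held 25.6% to 44.5% of the sum of arcn1a and arcn1b in all 8 libraries. An exact permutation test over 2 libraries a group cannot reach a small p, and none was made of these shares.

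**Figure D4:**
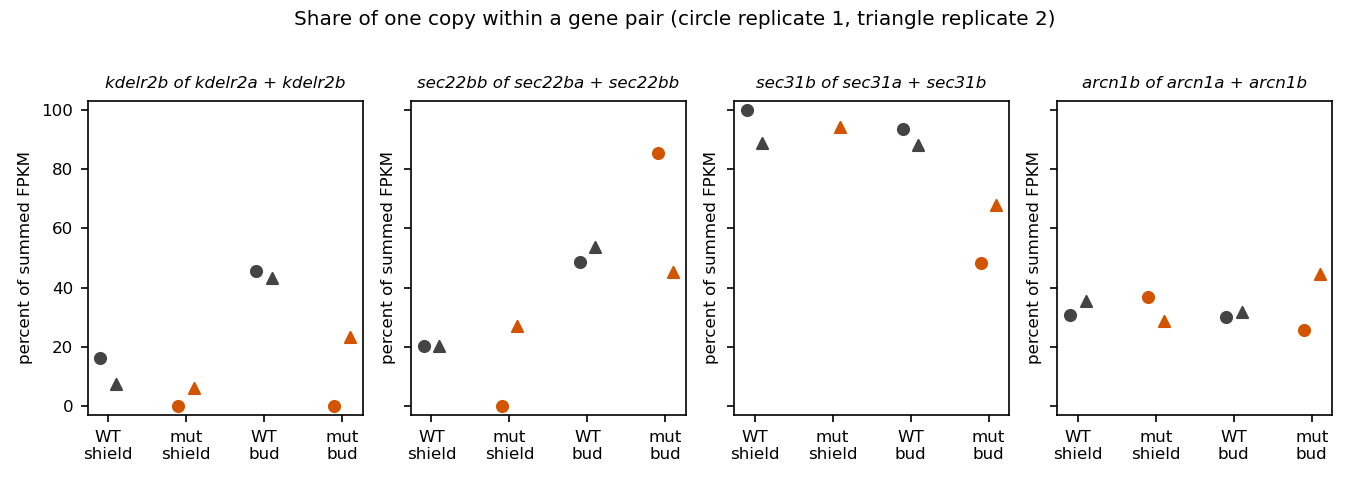
Percent of the summed FPKM of a paralog pair held by its second gene, in each library, by group. The kdelr2b and sec22bb shares are higher at bud than at shield in wild type, the sec31b share is lowest in mutant bud, and the arcn1b share stays between 25.6% and 44.5%.

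Other genes of the pathway, such as exit site, tethering, Arf and TRAPP genes and further SNAREs, were listed beside the 55. Of 74 such genes 63 were tested. Their log2 difference lay below 0 for 44 (69.8%) at shield, for 49 (77.8%) at bud and for 50 (79.4%) over both stages together. Their medians were -0.51, -0.86 and -0.79, those of all genes -0.30, -0.51 and -0.42, and 0 were called. Among them bcap31, an ER membrane chaperone and cargo sorting protein, had the smallest unadjusted p over both stages (-2.62, SE 0.96, unadjusted p = 0.0150 and adjusted p = 0.983 in limma). At bud trappc6b, a subunit of the TRAPP tethering complex, had the smallest (-3.44, SE 1.34, unadjusted p = 0.0210 and adjusted p = 0.959 in limma).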

How the data were processed

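Libraries were made with SMART-seq2 from polyA RNA, per the labels' protocols. The authors deposited FPKM per gene, 1 column per library. Reads were processed with Cufflinks 2.2.1, STAR 2.5.3a and Trim Galore on danRer11, per the submitters' processing notes. The annotation and read counts are not given in the sources used here, so absolute depth is unknown and no counting interval is given. Ratios of low values put the other 7 libraries at 22.8% to 77.9% of the depth of wild type bud replicate 2, but the most frequent ratio held 7 to 55 of 107 to 1017 genes, so these are rough. Of repeated symbols the most highly expressed entry was used, and 2 incomplete entries were dropped. The test took genes that reached FPKM 1 in 2 or more libraries, as log2(FPKM + 1), unscaled. A limma-trend fit (limma 3.58.1, R 4.3.3) of the 4 group means gave 6 two-sided comparisons, adjusted by Benjamini-Hochberg over 13984 genes, called at 0.05. The fit was also run on simulated data with far less spread between replicates than these libraries showed. That check therefore does not bear on how many real differences the fit would miss here.

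The genes and lists were chosen with earlier results of these data known. Members named are the 3 with the highest mean FPKM of each role, the 5 (genotype) or 3 (stage, interaction) with the smallest unadjusted p each way, and their paralogs. Alternatives were other pseudocounts, filters, scalings, weights, thresholds, a replicate block, and libraries left out.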

Additional observations from a re-analysis of the deposited data

How the results depend on the processing

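Depth and 2 libraries a group limit every value. No member was called in any comparison as first fitted, and most settings kept this. Of the alternative values of named members 1016 kept direction and call, 18 reversed and 3 passed the threshold. Those 3 were all in settings that left a single library in a group. Some settings could not change a direction, such as leaving out a library of a group not compared. Keeping the call meant staying uncalled, so the 1016 overstates how firmly these values held. Members' medians relative to all genes moved by less than 0.91 (log2), the spread between replicates, in all 114. That bound is wider than every such median as first fitted (-0.48 to 0.50), so it cannot show that their direction held. The medians ranged from -0.72 to -0.15 at shield, from -0.094 to 0.40 at bud and from -0.27 to 0.10 over both stages. For the stage the range was -0.40 to 0.081 in wild type and -0.010 to 0.75 in mutants. Median-of-ratios scaling moved the median genotype difference of all genes by 0.15 at shield and 0.18 at bud, and quantile normalization by 0.35 and 0.55. The cause of the changes below was not tested.

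Genes called over both stages numbered 1 under a filter of FPKM of at least 5, under library weights and at an adjusted p under 0.1. For the stage in mutants they numbered 3 under that filter, 8 under median-of-ratios scaling and 7 under quantile normalization. Replicate numbers are not stated to pair libraries, and deviations of same-numbered libraries correlated by -0.01 to 0.33 across genes. With the replicate number as a block, 1 gene was called over both stages, 5 for the stage in mutants and 1 for the interaction, none a member. Leaving out single libraries gave 0 to 2 genes called at shield, 0 to 3 over both stages and 0 to 1 for the stage in wild type. For the stage in mutants it gave 0 to 195, and members called ranged from 0 to 4 (copa, copb1, copg2 and lman1). All 4 were called without mutant shield replicate 2, where the arm holds 1 library assumed to vary like the others. In that library, mutant shield replicate 1, 53.3% of all tested genes were listed at 0. There copa, copb1, copg2 and lman1 stood at 0.223, 0.474, 0 and 0.465 FPKM. These calls thus rest on values at or near 0 in 1 library, and the part of failed detection in them was not tested. With the first mutant shield library and the second mutant bud library both left out, 237 genes were called at bud, 3 of them members (yipf5, gosr2 and kdelr2b).

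Counts of members below 0 and with mutant libraries all lower were added after seeing the data. Among the 25 members at FPKM of 1 or more in every library, 20, 13 and 19 lay below 0 at shield, bud and over both stages. Of these 25, 7, 8 and 3 had mutant libraries all lower. The shares of all genes under that filter are not given here, so these counts have no background beside them. Leaving out single libraries, 21 to 49 lay below 0 at shield and 27 to 48 over both stages, and 12 to 38, 16 to 34 and 6 to 12 had mutant libraries all lower at shield, at bud and over both. The shares of all genes rose too. At the highest counts members stood at 70.4% against 49.2% of all genes (shield), 65.4% against 57.1% (bud) and 22.2% against 15.7% (both). With that same pair of libraries left out, 20 lay below 0 at shield, and 34 at bud (57.4% of all genes did) and 12 over both (9.42%) had all mutant libraries lower. Without both mutant replicate 1 libraries 21 lay below 0 at shield and 23 over both. Without the 3 libraries with the fewest genes, a setting chosen after seeing the data, 39 at shield (72.2%, against 51.8% of all genes) and 14 over both (25.9%, against 23.7%) had all mutant libraries lower. Each shield group then held a single library, so the shield count is only the sign of that difference, and 15 members were higher (27.8%, against 45.5%).

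Of 48 differences of named members, 31 moved by over 1.5 times when single libraries were left out, and some reversed. Leaving out single libraries, the shield difference ranged from -0.66 to 0.93 for tmed8, from -5.76 to 0.18 for lman1 and from -4.71 to 0.23 for copa. Over both stages it ranged from -0.15 to 1.11 for sec31a, from -0.28 to 1.16 for sec23a and from -0.17 to 0.71 for sar1b. The stage difference of yipf1 in wild type ranged from -2.82 to 0.22, and the interaction of copg2 from -0.17 to 5.16. With mutant shield replicate 1 and mutant bud replicate 2 both left out, the interaction of copg2 was -1.08. Without the 3 libraries with the fewest genes, bet1 was -0.32 and lman2la -0.047 at shield.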
